A study of Rattus norvegicus with 36 samples.

Results

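The genes described here build and acidify the lysosome. They were the probes whose gene symbol began with Atp6v0, Atp6v1 or Atp6ap, the subunits and accessory proteins of the vacuolar proton pump, together with 35 listed genes for lysosomal hydrolases, membrane proteins and their partners. The rule took 53 of the 21792 probes on the array, for 51 genes. They divided into 24 pump probes, 19 acid hydrolases, 7 membrane proteins, the activator precursor Psap and progranulin (Grn), and the transcription factor Tfeb. For 6 of the 35 listed genes, Acp5, Fuca1, Gnptab, Ids, Idua and Naglu, no probe carried the name. Psap stands for prosaposin, the precursor of the saposins that present sphingolipids to their hydrolases.

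The rats were males of the strain labelled Fisher (CDF) 344, with an age label of approximately 3 months that is not tied to a time in the experiment. By inhalation, 6 rats received crystalline silica at 15 mg/m3 for 6 hours a day on 5 days, and 6 received air (0 mg/m3). All were killed 44 weeks after the exposure ended. RNA from lung tissue, from cells recovered by bronchoalveolar lavage, and from blood of these same rats was hybridised to 36 Illumina rat BeadChip arrays, so each tissue had 6 silica and 6 air arrays. The labels do not say whether the lung tissue had been lavaged. The arrays detected between 10974 and 11607 probes in lung, 9229 to 9773 in lavage cells and 7244 to 8861 in blood. All 15 lung structural marker probes, such as those of surfactant genes, were detected in lung, against 6 in lavage cells and 2 in blood, where a marker counts as detected once it passed the filter for testing. All 5 erythroid marker probes were detected in blood and in lung, and 3 of them in lavage cells. Of 13 macrophage marker probes, all were detected in lung, 11 in lavage cells, where those of Emr1 and Cd163 were not, and 5 in blood.

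Lysosomes digest material taken up by endocytosis and phagocytosis, and their hydrolases work best at acid pH. The acid comes from the vacuolar ATPase, in which the cytoplasmic V1 sector splits ATP and the membrane-bound V0 sector carries protons. Alveolar macrophages take inhaled silica crystals into phagolysosomes, whose membranes the crystals can damage. The transcription factor TFEB switches on many lysosomal genes together, as shown in human cells, through the palindromic CLEAR element, whose core is an E-box.

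The reference promoters of these genes were searched for that element. As the element is known from lysosomal genes, its frequency among the members is no test of joint control in these data. RefSeq windows on build GRCr8, from 250 bases before to 50 after the annotated start, were matched by symbol for 40 of the 51 genes. The E-box CACGTG stood in 9 of these 40 windows (22.5%), against 6.42% of all 33465 windows. The longer word GTCACGTG, which contains that E-box, was read on both strands and stood in 8 of the 40 (20.0%), against 1.85% of all windows. The 8 genes were Atp6v0d1, Atp6v0e1, Cln3, Gaa, Galc, Glb1, Lamp1 and Mcoln1, and the Cd63 window held only the shorter word. The longer word was thus in 2 of 17 pump windows, 3 of 14 hydrolase windows and 3 of 7 membrane protein windows. A match is a description of the reference letters, not a measured binding site. The 4 windows of the genes with the largest called changes among those that hold the longer word are shown, each on its gene's strand, with that word in capitals on either strand. They lie at chr19:50357199-50357498 (minus strand, Atp6v0d1), chr6:123245510-123245809 (minus strand, Galc), chr10:17007107-17007406 (minus strand, Atp6v0e1) and chr10:105028105-105028404 (plus strand, Gaa).
Atp6v0d1: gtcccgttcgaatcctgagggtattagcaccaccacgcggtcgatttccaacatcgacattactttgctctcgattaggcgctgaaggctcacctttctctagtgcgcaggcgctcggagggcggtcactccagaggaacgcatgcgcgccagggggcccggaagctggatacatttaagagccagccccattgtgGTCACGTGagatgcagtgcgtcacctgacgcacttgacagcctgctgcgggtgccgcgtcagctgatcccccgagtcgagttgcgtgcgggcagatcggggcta
Galc: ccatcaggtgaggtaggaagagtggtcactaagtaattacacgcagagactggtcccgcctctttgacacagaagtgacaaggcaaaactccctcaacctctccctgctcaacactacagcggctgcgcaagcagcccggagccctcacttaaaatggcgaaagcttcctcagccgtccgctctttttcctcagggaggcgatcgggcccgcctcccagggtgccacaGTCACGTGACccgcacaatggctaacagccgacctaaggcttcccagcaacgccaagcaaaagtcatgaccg
Atp6v0e1: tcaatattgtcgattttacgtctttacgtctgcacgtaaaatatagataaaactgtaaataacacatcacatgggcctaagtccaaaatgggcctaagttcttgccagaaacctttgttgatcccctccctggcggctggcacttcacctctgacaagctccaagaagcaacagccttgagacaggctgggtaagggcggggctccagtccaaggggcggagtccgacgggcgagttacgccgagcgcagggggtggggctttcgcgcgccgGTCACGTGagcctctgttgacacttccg
Gaa: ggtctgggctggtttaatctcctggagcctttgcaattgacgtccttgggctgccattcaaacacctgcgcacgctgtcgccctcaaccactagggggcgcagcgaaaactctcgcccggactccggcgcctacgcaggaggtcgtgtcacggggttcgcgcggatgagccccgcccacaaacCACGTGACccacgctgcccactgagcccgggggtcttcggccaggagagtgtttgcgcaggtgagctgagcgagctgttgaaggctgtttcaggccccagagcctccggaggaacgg
In the Galc window the words on the 2 strands overlap and make up the full palindrome. The word began 54 bases before the start in Atp6v0d1, 22 before in Galc and 67 before in Gaa. In Atp6v0e1 it began 22 bases after the first base of the start. The silica changes of these 4 genes were small, and they are given with the tissues in which they were called.

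In the lung, 44 weeks after silica, lysosomal probes were called higher and none lower. Of the 49 member probes tested, 21 were called higher at an adjusted p under 0.05 (limma, two-sided, Benjamini-Hochberg over all 11399 tested probes), while 8.26% of all tested probes were called higher and 9.46% lower. The rises were modest, from 0.047 to 0.65 on the log2 scale. The values of all 6 silica rats lay above those of all 6 air rats for 12 members, where 4.83% of all tested probes showed that separation, and for no member the other way, where 4.35% did. In bulk tissue, a change in the number of cells of a type and a change in RNA per cell cannot be told apart. The member median was 0.082, against -0.0044 over all tested probes.

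Pump and hydrolases are set side by side as differences from air, since levels of different probes do not compare. In the lung, 9 of 20 tested pump probes and 8 of 19 hydrolase probes were called higher. Their median changes were 0.15 for the pump and 0.076 for the hydrolases, but their order depended on the processing. Without background correction the medians were 0.14 for the pump and 0.17 for the hydrolases. With arrays aligned by their median over detected probes in place of quantile normalization they were 0.095 and 0.13, and with alignment over all probes -0.025 and 0.014. Averaged over its tested probes, the pump ran from 10.31 to 10.38 on the air arrays and from 10.46 to 10.54 on the silica arrays. The hydrolase average ran from 9.54 to 9.60 in air and from 9.65 to 9.73 in silica. For both classes the groups did not overlap, while the average of the 7 membrane proteins did, at 11.34 to 11.45 in air and 11.40 to 11.47 in silica. In lavage cells the pump had 3 probes called higher and 4 lower of 19, and the hydrolases 4 higher and 8 lower of 19, beside 15.2% of all tested probes higher and 18.1% lower. There the median change was 0.071 for the pump, which turned to -0.058 and -0.013 under the 2 median alignments tried, and -0.043 for the hydrolases. The membrane proteins had 3 of 7 probes called lower and none higher in lavage cells. Their average ran from 12.16 to 12.27 on the air arrays and from 12.07 to 12.15 on the silica arrays, narrowly without overlap. The 3 falls lost their calls under alignment by the median over all probes and kept them under alignment over detected probes. No test compared the classes, whose members were chosen together.

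**Figure D1:**
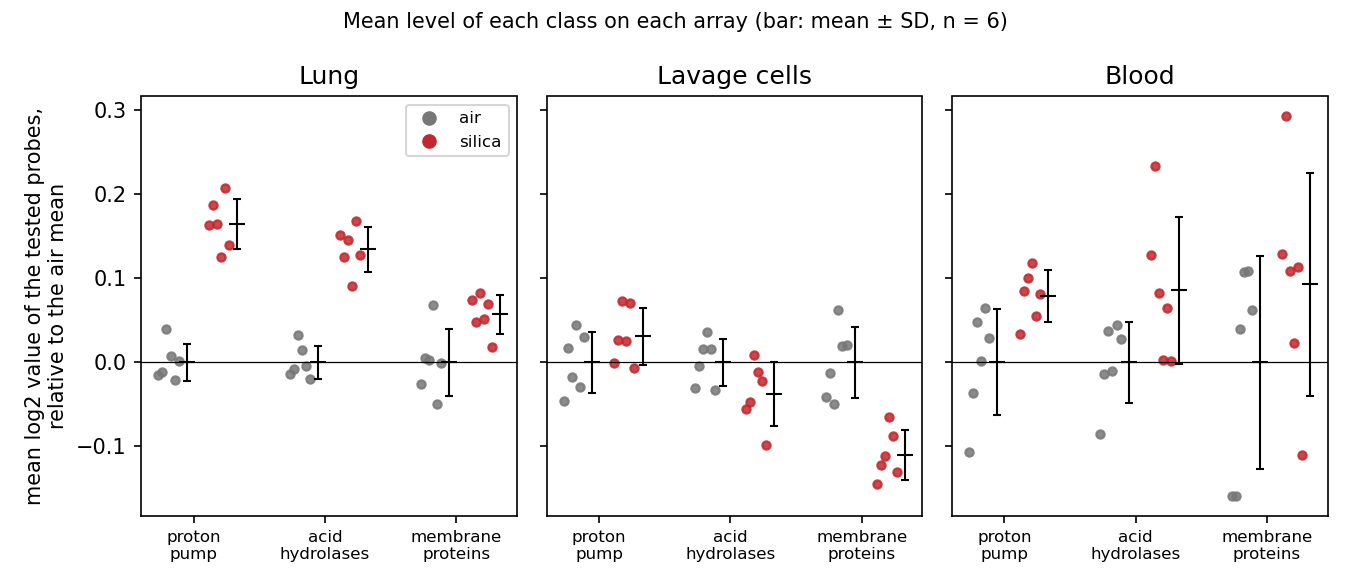
Each point is the mean log2 intensity of the tested probes of a class on 1 array, minus the mean of the 6 air arrays of the tissue, and bars are mean ± SD (n = 6). Pump and hydrolase means of the silica lungs lie above all air lungs. Membrane protein means of silica lavage cells lie narrowly below all air samples. Under alignment by the median over all probes the lung pump median turned negative and the 3 membrane protein calls in lavage cells were lost.

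Within the pump, the V1 sector carried most of the calls in lung, with 6 of 11 tested probes higher, against 2 of 7 in V0 and 1 of 2 accessory proteins. Atp6v1b2 encodes the nucleotide-binding B subunit isoform found in most tissues. Its log2 intensity in lung ran from 11.84 to 12.25 with a median of 12.07 in air rats, and from 12.52 to 12.70 with a median of 12.57 in silica rats. All silica values stood above all air values, and the difference was 0.53 ± 0.063 (SE, n = 6 rats per group; 1.45-fold; limma adjusted p = 0.000361). Atp6v1a encodes the catalytic A subunit, which hydrolyses ATP. It measured 8.26 to 8.78 (median 8.58) in air lungs and 8.76 to 9.10 (median 8.98) in silica lungs. The highest air rat reached just past the lowest silica rat, and the difference was 0.42 ± 0.086 (limma adjusted p = 0.00722). The other V1 subunits called higher were Atp6v1c1 (0.24), Atp6v1h (0.19), Atp6v1d (0.16) and Atp6v1f (0.14), which join, regulate or form the stalks between the sectors, and these 4 turned negative under alignment by the median over all probes. Atp6v1c1 had a further probe, whose change was 0.016 ± 0.021 (limma adjusted p = 0.667), so its 2 probes disagreed. Atp6v1h sat near the threshold, at an adjusted p of 0.0454 in limma, and lost its call when any 1 of 10 of the 12 arrays was left out.

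In V0, the d2 isoform was called higher in lung and the d1 isoform was not, though the difference between them was not tested. Atp6v0d2, an isoform known from osteoclasts and macrophages of mice, measured 7.60 to 7.85 (median 7.67) in air lungs. In silica lungs it measured 7.997 to 8.29 (median 8.18). The groups were fully apart, with a difference of 0.49 ± 0.054 (limma adjusted p = 0.00025). Its air values lay close to the floor of the scale, where a log2 change understates the change in RNA. Atp6v0d1, the isoform present in most cells, differed by 0.065 ± 0.050 (limma adjusted p = 0.43), and its further probe failed the detection filter in every tissue. Atp6v0c, which forms the proton-carrying ring, was higher by 0.19 ± 0.033 (limma adjusted p = 0.00304) without overlap between the groups. Among accessory proteins, Atp6ap2, also known as the prorenin receptor, was higher by 0.30 ± 0.064 (limma adjusted p = 0.00763). Atp6ap1 differed by 0.039 ± 0.058 (limma adjusted p = 0.712). Probes for Atp6v1b1, Atp6v1e2 and Atp6v1g2 were not tested in any tissue, since they were not detected on 6 of the 12 arrays.

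**Figure D2:**
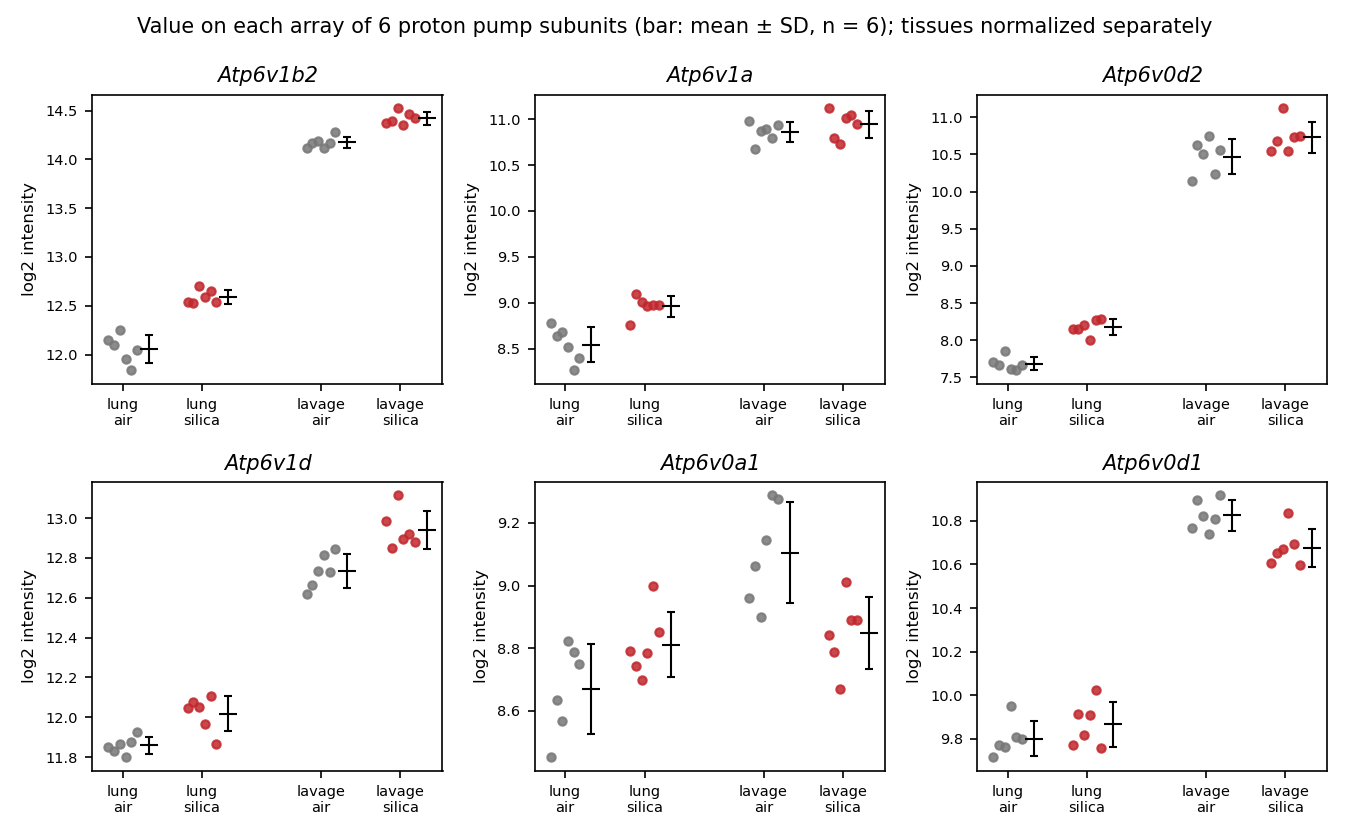
Log2 intensity of 6 pump subunits on every lung and lavage cell array, grey for air and red for silica, with mean ± SD (n = 6), and the 2 tissues normalized separately. Atp6v1b2 and Atp6v0d2 are separated in lung, Atp6v1d only in lavage cells, and Atp6v0a1 and Atp6v0d1 overlap in both.

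Among the hydrolases and their partners, the largest lung rise was that of Lgmn. Lgmn encodes legumain, an endopeptidase that cuts after asparagine and processes cathepsins. It measured 10.13 to 10.39 (median 10.33) in air lungs and 10.68 to 11.14 (median 10.96) in silica lungs. The groups did not overlap, and the difference was 0.65 ± 0.075 (1.57-fold, limma adjusted p = 0.000308). Psap measured 9.38 to 9.84 (median 9.66) in air and 10.005 to 10.39 (median 10.19) in silica. Every silica value exceeded every air value, with a difference of 0.54 ± 0.083 (limma adjusted p = 0.00165). Grn, a secreted glycoprotein that lysosomes cut into granulins, measured 10.98 to 11.14 (median 11.06) in air and 11.40 to 11.67 (median 11.54) in silica. Its groups were also apart, with a difference of 0.49 ± 0.047 (limma adjusted p = 0.000151). Gusb, which encodes beta-glucuronidase, measured 9.86 to 10.19 (median 10.10) in air and 10.18 to 10.66 (median 10.49) in silica. Its groups touched at the edge, and the difference was 0.42 ± 0.087 (limma adjusted p = 0.00745).

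Hexa encodes the alpha subunit of beta-hexosaminidase, which degrades GM2 ganglioside. In lung it measured 9.91 to 10.07 (median 9.996) in air and 10.20 to 10.41 (median 10.30) in silica. The groups were apart by 0.30 ± 0.038 in their means (limma adjusted p = 0.000532). The lysosomal acid phosphatase Acp2 was higher by 0.34 ± 0.074 (limma adjusted p = 0.00984). The remaining hydrolases called higher were dim in lung and changed little, namely Galc (0.082), Gaa (0.066), Glb1 (0.066) and Lipa (0.047). Galc encodes galactosylceramidase, Gaa the acid alpha-glucosidase that degrades glycogen, Glb1 beta-galactosidase and Lipa the acid lipase. Ppt1, the palmitoyl-protein thioesterase, had a larger difference of 0.21 ± 0.082 that was not called (limma adjusted p = 0.107). Smpd1, acid sphingomyelinase, measured 12.23 to 12.57 (median 12.41) in air lungs and 12.11 to 12.51 (median 12.31) in silica lungs. These groups overlapped widely, at -0.071 ± 0.076 (limma adjusted p = 0.585). Gla, alpha-galactosidase, measured 7.54 to 7.61 (median 7.56) in air lungs and 7.57 to 7.61 (median 7.60) in silica lungs, also with overlap, at 0.027 ± 0.012 (limma adjusted p = 0.168).

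Of the membrane proteins, Laptm5 and Cd63 were called higher in lung. Laptm5, a transmembrane protein of lysosomes in blood-derived cells, measured 11.90 to 12.21 (median 12.15) in air and 12.35 to 12.66 (median 12.45) in silica. Its groups did not overlap, and the difference was 0.34 ± 0.064 (limma adjusted p = 0.0046). The tetraspanin Cd63 was higher by 0.29 ± 0.058 (limma adjusted p = 0.00577), also without overlap. The abundant membrane glycoproteins differed less, Lamp1 by -0.014 ± 0.042 and Lamp2 by -0.064 ± 0.057, neither called. Laptm4a had the lowest change of all members in lung, -0.21 ± 0.067, just short of the threshold in limma (adjusted p = 0.0542). Tfeb was at the edge of detection, at 7.46 to 7.50 in air and 7.46 to 7.49 in silica, and was not called in any tissue.

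Most macrophage markers were called higher in the same lungs. Of 13 macrophage marker probes 9 were called higher and 1 lower, and their mean level ran from 9.60 to 9.80 in air rats and from 10.32 to 10.61 in silica rats. Of the lung structural markers 2 were called higher and 4 lower of 15, and their mean level ran from 11.25 to 11.41 in air and from 11.21 to 11.24 in silica, without overlap. Of the 5 erythroid markers 2 were called lower, Gypc and Slc4a1, with a mean level of 10.73 to 10.79 in air and 10.63 to 10.70 in silica, also without overlap. Over all tested lung probes 8.26% were called higher and 9.46% lower. Of the neutrophil markers 1 was called higher of 10, near that share, with S100a9 and Ltf not detected, and of the lymphocyte markers none of 13. The part of these markers in the lysosomal changes of the lung was not tested. The lung calls depended on how arrays were aligned. With each array shifted to a common median over all probes, 1 of the 21 members stayed called, Atp6v0d2, and with the shift over detected probes 5 did, Grn, Atp6v1b2, Lgmn, Psap and Atp6v0d2, while the calls over all probes fell from 942 higher to 37 and 322.

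In lavage cells members were called in both directions. Of 48 tested, 8 were called higher (16.7%) and 15 lower (31.2%) (limma, adjusted over 9564 probes). Over all tested probes 15.2% were called higher and 18.1% lower, so the higher share of the members was close to that of the array. The groups were apart without overlap for 4 members higher and 4 lower in silica, where 9.04% and 9.67% of all tested probes showed these separations. The 8 higher probes were those of Acp2, Grn, Smpd1, Atp6v1b2, Arsb, Atp6v1d, Gla and Atp6v0e1. The 15 lower were Lipa, Ppt1, Aga, Atp6v0a1, Lamp2, Laptm4a, Laptm5, Hexa, Man2b1, Manba, Tpp1, Atp6v0d1, Atp6v0e2, Atp6v1c2 and Arsa. The sizes ran from -0.32 to 0.37, and the member median was -0.018, against -0.0057 over all tested probes.

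Among pump subunits in lavage cells, Atp6v1b2 measured 14.12 to 14.28 (median 14.17) in air and 14.35 to 14.53 (median 14.41) in silica. As in lung the groups were apart, by 0.25 ± 0.034 (limma adjusted p = 0.000218). Atp6v1d, part of the central rotor, measured 12.62 to 12.85 (median 12.73) in air and 12.85 to 13.12 (median 12.91) in silica. The lowest silica value stood just above the highest air value, with a difference of 0.21 ± 0.051 (limma adjusted p = 0.00864). Atp6v0e1, a small membrane subunit, measured 14.51 to 14.62 (median 14.55) in air and 14.57 to 14.72 (median 14.63) in silica. Those groups overlapped, and the difference of 0.077 ± 0.025 (limma adjusted p = 0.0346) turned negative under both median alignments, at -0.0905 and -0.0456. Falls were called for 3 V0 subunits and Atp6v1c2. Atp6v0a1, the a subunit isoform through which protons pass, measured 8.90 to 9.29 (median 9.10) in air and 8.67 to 9.01 (median 8.87) in silica. The groups overlapped, with a difference of -0.26 ± 0.077 (limma adjusted p = 0.0236). Atp6v0d1 measured 10.74 to 10.92 (median 10.81) in air and 10.60 to 10.84 (median 10.66) in silica. It too overlapped, at -0.15 ± 0.044 (limma adjusted p = 0.0215). Atp6v0e2 measured 7.73 to 7.84 (median 7.78) in air and 7.67 to 7.73 (median 7.69) in silica, near the floor. Its groups were just apart, at -0.086 ± 0.020 (limma adjusted p = 0.00688). Atp6v0d2, called in lung, differed by 0.26 ± 0.12 in lavage cells and was not called (limma adjusted p = 0.128).

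The hydrolases of lavage cells held both the largest rise and the largest fall. Acp2 measured 11.75 to 12.11 (median 11.91) in air and 12.15 to 12.40 (median 12.27) in silica. The groups were apart, by 0.37 ± 0.060 (1.29-fold, limma adjusted p = 0.000675). Smpd1 measured 11.04 to 11.44 (median 11.28) in air and 11.22 to 11.61 (median 11.59) in silica. The groups overlapped through 1 low silica rat, with a difference of 0.26 ± 0.089 (limma adjusted p = 0.0399). Arsb, a sulfatase that acts on glycosaminoglycans, measured 7.67 to 7.72 (median 7.68) in air and 7.72 to 8.14 (median 7.90) in silica. The 2 groups met at 1 shared value, and the difference was 0.23 ± 0.055 (limma adjusted p = 0.00727). Gla measured 7.48 to 7.57 (median 7.52) in air and 7.57 to 7.69 (median 7.65) in silica, with the groups touching. Its difference was 0.13 ± 0.023 (limma adjusted p = 0.00154). Grn, outside the hydrolases, measured 12.53 to 12.80 (median 12.78) in air and 12.94 to 13.06 (median 12.98) in silica. It did not overlap, at 0.27 ± 0.047 (limma adjusted p = 0.00107).

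The falling hydrolases act on lipids, glycoproteins and peptides. Lipa, which releases cholesterol and fatty acids from lipids taken into the lysosome, measured 8.28 to 8.59 (median 8.45) in air and 7.97 to 8.28 (median 8.13) in silica. The groups met at their edges, and the level was lower by 1.25-fold in silica, a change of -0.32 ± 0.058 (limma adjusted p = 0.00148). Ppt1 measured 14.59 to 14.82 (median 14.65) in air and 14.27 to 14.53 (median 14.40) in silica. All silica values were below all air values, at -0.29 ± 0.050 (limma adjusted p = 0.00114). Aga, which frees asparagine from glycoprotein sugars, measured 12.92 to 13.42 (median 13.01) in air and 12.68 to 12.95 (median 12.82) in silica. The groups overlapped slightly, at -0.26 ± 0.080 (limma adjusted p = 0.0276). Hexa measured 12.17 to 12.44 (median 12.31) in air and 12.00 to 12.28 (median 12.06) in silica, with overlap. Its change was -0.22 ± 0.056 (limma adjusted p = 0.0101). The mannosidases Man2b1 (-0.20) and Manba (-0.18), the peptidase Tpp1 (-0.17) and the sulfatase Arsa (-0.043) were also called lower. Lgmn, first in lung, measured 12.81 to 13.12 (median 12.95) in air and 12.91 to 13.15 (median 13.00) in silica. These overlapped almost wholly, at 0.081 ± 0.057 (limma adjusted p = 0.315).

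Among membrane proteins of lavage cells, Lamp2, a heavily glycosylated coat protein also needed for autophagy, measured 13.13 to 13.30 (median 13.23) in air and 12.93 to 13.03 (median 12.96) in silica. The groups were apart, at -0.25 ± 0.030, the smallest adjusted p of any member in this tissue (9.61e-05, limma). Laptm4a measured 13.59 to 13.82 (median 13.69) in air and 13.40 to 13.59 (median 13.46) in silica. The groups met at 1 value, at -0.23 ± 0.045 (limma adjusted p = 0.00216). Laptm5 measured 14.61 to 15.06 (median 14.71) in air and 14.43 to 14.61 (median 14.54) in silica. It met at 1 value too, at -0.22 ± 0.068 (limma adjusted p = 0.0278). The endolysosomal cation channel Mcoln1 differed by 0.13 ± 0.046 and was not called (limma adjusted p = 0.0531).

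**Figure D3:**
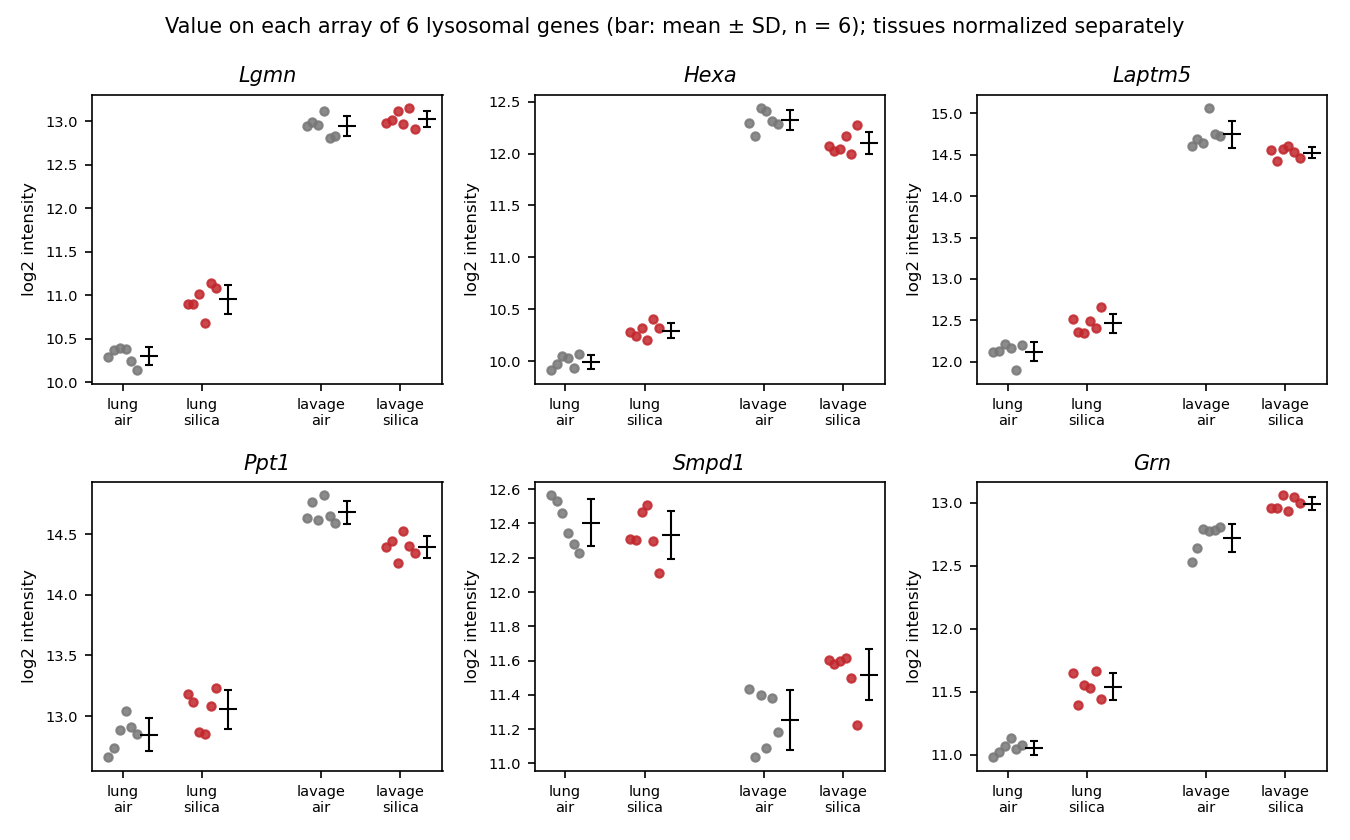
Log2 intensity of 6 lysosomal genes on every lung and lavage cell array, grey for air and red for silica, with mean ± SD (n = 6), and the 2 tissues normalized separately. Hexa and Laptm5 are higher with silica in lung and lower in lavage cells, Grn is higher in both, and Lgmn is separated only in lung.

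In the lavage cells 6 of 11 macrophage marker probes were called higher and 3 lower, 6 of 8 neutrophil markers higher and 4 of 10 lymphocyte markers higher. Over all tested probes 15.2% were called higher and 18.1% lower. The mean level of the neutrophil markers was 7.41 to 7.50 in air and 7.62 to 7.83 in silica, and S100a9, Csf3r, Lcn2 and Ltf were not detected. The mean of the macrophage markers was 10.54 to 10.74 in air and 11.17 to 11.63 in silica, and that of the lymphocyte markers 7.58 to 7.67 in air and 7.68 to 8.10 in silica. Of the 6 lung structural markers tested, Pdpn was called higher and Scgb1a1 lower, close to the shares over all tested probes. The mean of these 6 ran from 8.34 to 8.62 in air and from 8.17 to 8.33 in silica, without overlap. The other 9 structural markers, Sftpc and Sftpb among them, were not detected. None of the 3 erythroid markers tested was called, though their median change was -1.20, with means of 9.62 to 12.09 in air and 8.35 to 11.13 in silica that overlapped, and Alas2 and Slc4a1 were not detected. The part of these markers in the lysosomal changes was not tested. Alignment by the median over all probes left none of the 8 higher and 15 lower calls, and alignment over detected probes left 2 and 10, with Arsa turned positive. Smpd1 lost its call when any 1 of 8 of the 12 arrays was left out, Atp6v0e1 with 10, Man2b1 with 7, Tpp1 with 6, Aga with 4, Laptm5 and Atp6v1c2 with 3 each, and Atp6v0a1 with 2.

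**Figure D4:**
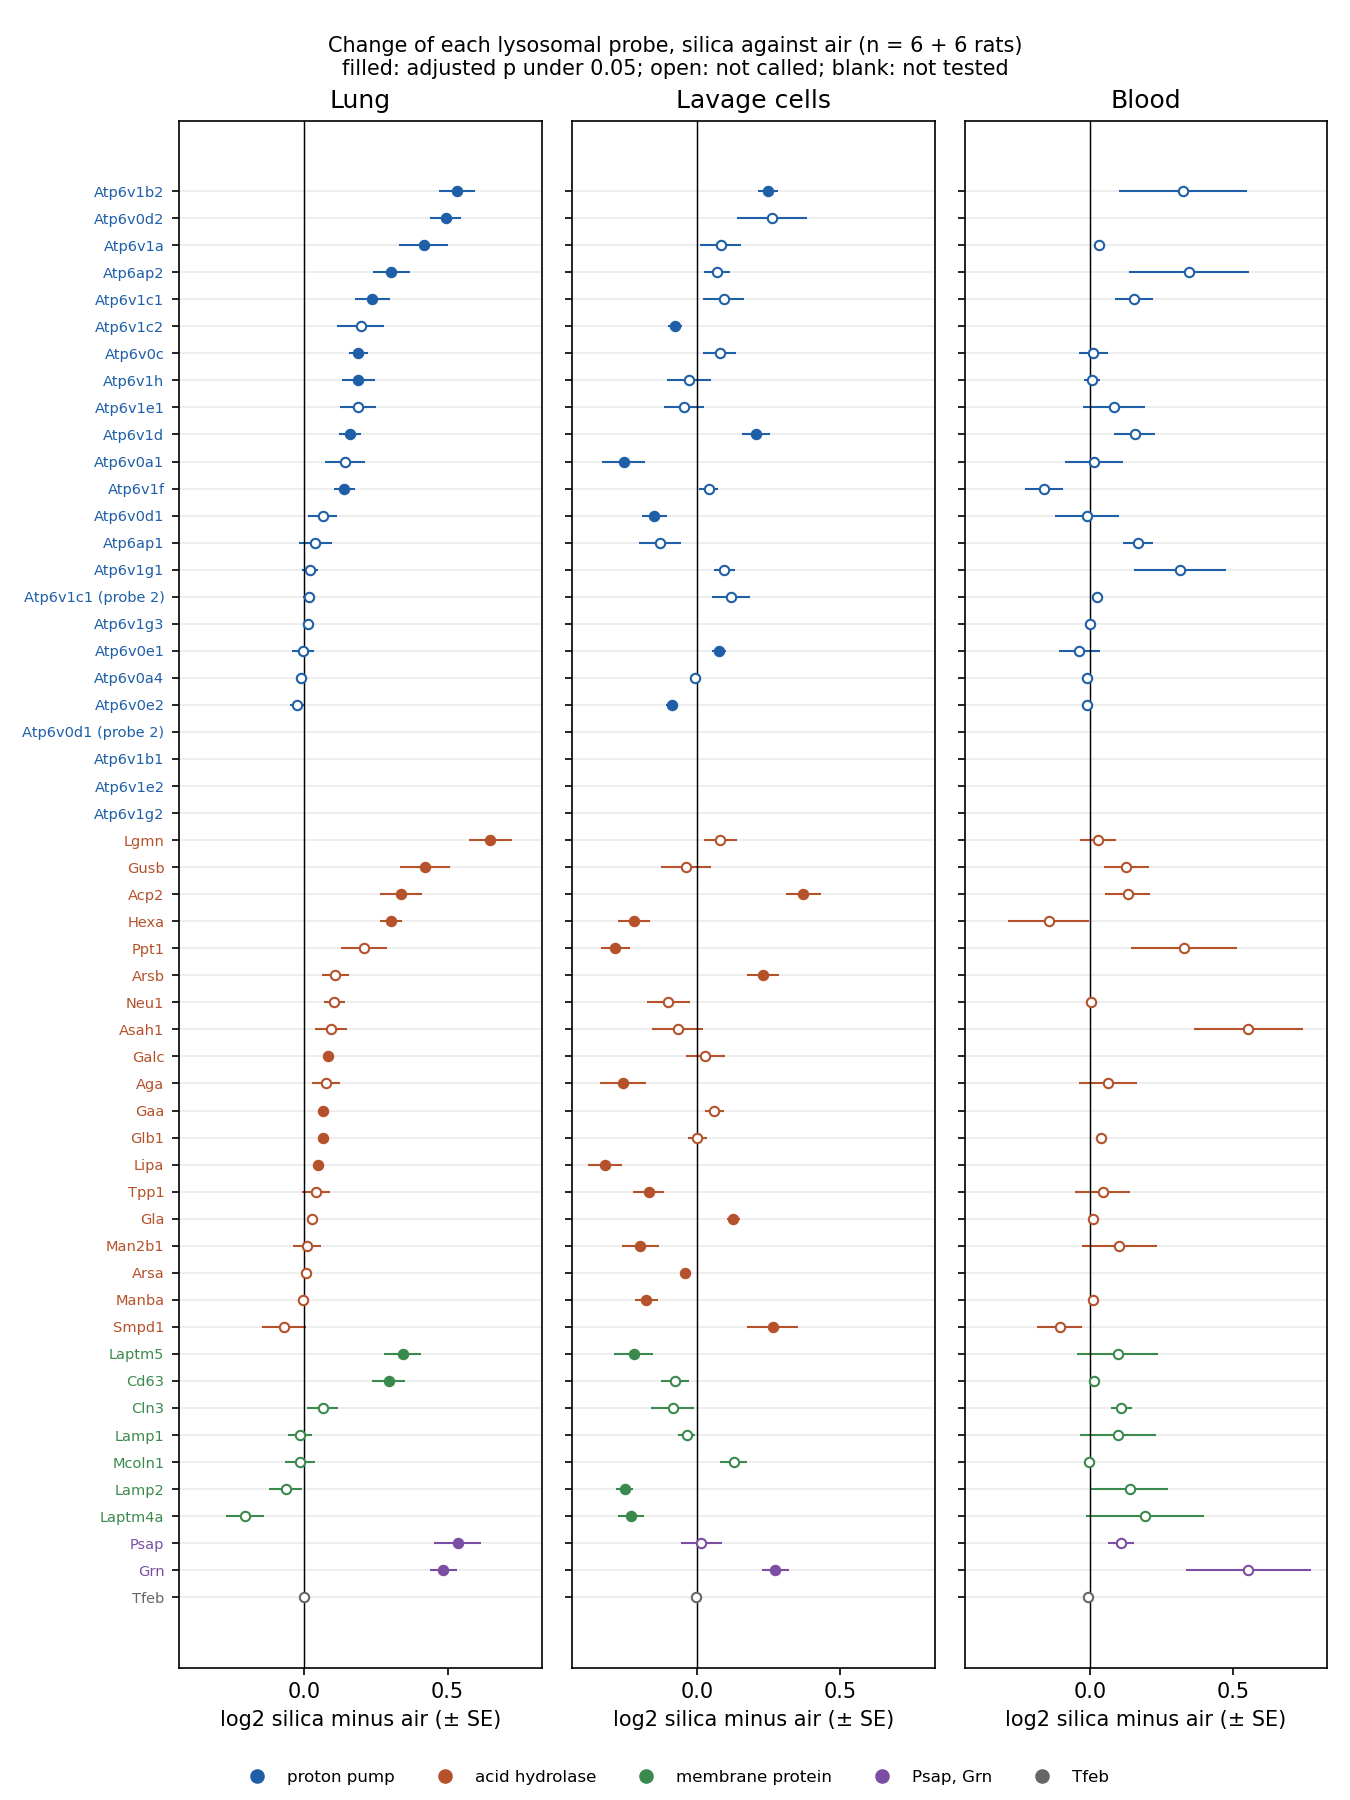
Log2 change with silica and its SE for each member in the 3 tissues (n = 6 + 6 rats), coloured by class, filled where the adjusted p was under 0.05 and blank where a probe was not tested. Filled points lie only right of 0 in lung, on both sides in lavage cells and nowhere in blood, and alignment by the median over all probes left 1 of these calls and turned Atp6v0e1 in lavage cells and 4 pump probes in lung negative.

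Lung and lavage cells came from the same rats, so the difference between their silica changes was tested on each rat's lung minus lavage value. The change was more positive in lung for 18 of 48 members and less positive for 2, where 12.2% and 10.3% of all 9131 probes tested in both were called (limma). By class these were 5 of 19 pump probes, 8 of 19 hydrolases, 3 of 7 membrane proteins, Psap and Grn. The largest differences were 0.57 ± 0.065 for Lgmn (limma adjusted p = 0.000121), 0.56 ± 0.094 for Laptm5 (limma adjusted p = 0.0013) and 0.52 ± 0.067 for Hexa (limma adjusted p = 0.000244). Psap, Ppt1, Gusb and Atp6v0a1 followed with 0.52, 0.49, 0.46 and 0.40. Hexa, Laptm5 and Lipa were called higher in lung and lower in lavage cells. Lipa was dim in lung and rose there by only 0.047. Its lung call was lost with the replicate block and in the joint fit, where Hexa and Laptm5 kept theirs. Under both median alignments Hexa and Laptm5 lost their lung calls too. Their lavage calls were lost under alignment over all probes and kept under alignment over detected probes. The opposite difference was found for Smpd1, at -0.34 ± 0.086 (limma adjusted p = 0.0153), and Gla, at -0.10 ± 0.023 (limma adjusted p = 0.00971), both called higher only in lavage cells.

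Of the 21 members called higher in lung, 4 were called higher in lavage cells as well, Grn, Acp2, Atp6v1b2 and Atp6v1d. That is 19.0%, while 40.2% of the 831 probes called higher in lung over the whole array and tested in both were called higher in lavage cells. The 4 were among the 8 members called higher in lavage cells. A further 3 of the 21 were called lower in lavage cells (14.3%, against 14.9% over the array), and 14 were not called. No test was made of these shares.

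**Figure D5:**
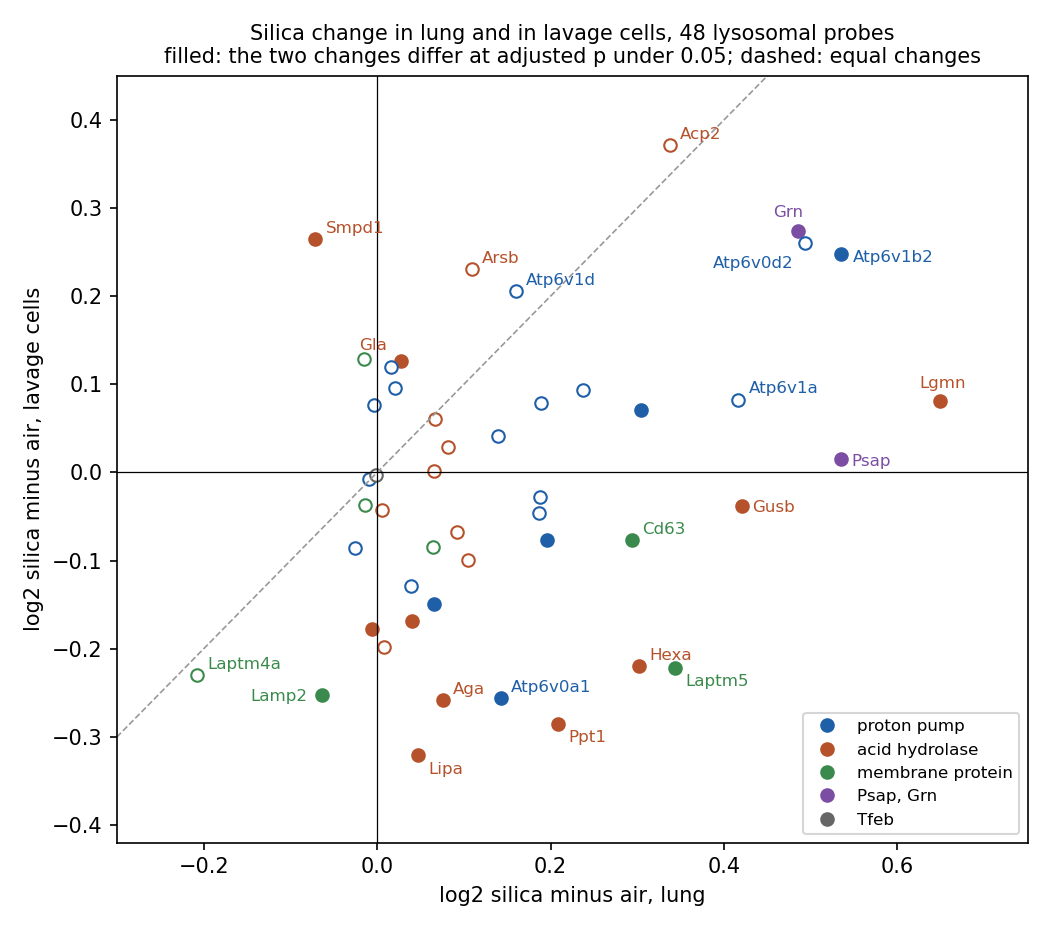
Log2 silica change in lung (horizontal) against that in lavage cells (vertical) for the 48 members tested in both, coloured by class, filled where the 2 changes differed at an adjusted p under 0.05, with a dashed line of equal change. Most filled points lie below the line, and Smpd1 and Gla lie above it, whereas none of these differences was called under alignment by the median over all probes.

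Without silica, most members were already brighter in lavage cells than in lung. In the 6 air rats, after normalization of the 3 tissues together, 43 of 49 members were higher in lavage cells and 4 lower (limma on each rat's difference), where 50.2% of all tested probes were higher and 33.3% lower. The median difference was 0.96 for pump probes and 0.93 for hydrolases, against 0.032 over all probes tested. Each tissue's arrays stand in a table of their own, so tissue and array run cannot be told apart. The largest difference was that of Psap, with means of 9.09 in lung and 12.59 in lavage cells, a difference of 3.51 ± 0.086 (limma adjusted p = 2.08e-07). Laptm5 (2.92), Lgmn (2.90), Atp6v0d2 (2.68), Hexa (2.55), Atp6v1a (2.44) and Atp6v1b2 (2.28) came next. The silica changes of these 7 in lung were 0.54, 0.34, 0.65, 0.49, 0.30, 0.42 and 0.53 in the same order, and all were called. Further down the ranking, members higher in lavage cells were of both kinds. Ppt1 (1.93) and Tpp1 (1.42), with silica changes in lung of 0.21 and 0.040, were not called there. Grn (1.85) and Cd63 (1.74), at 0.49 and 0.29, were. Since both sets of values use the lung air arrays, no correlation between them is given. The 4 members lower in lavage cells were Atp6v1c2 (-3.39), an isoform known from epithelia, Smpd1 (-1.21), Laptm4a (-0.81) and Arsb (-0.27). Their silica changes in lung were 0.20, -0.071, -0.21 and 0.11, and none was called.

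In blood no member was called among 42 tested. Over all 8044 probes 0 were called in limma, 0% in either direction, with 1072 at an unadjusted p under 0.05, of which 10 were members. No member had groups that did not overlap, against 0.609% of all tested probes higher and 0.622% lower. The change was positive for 33 members and negative for 9, against 3512 positive and 4532 negative over all tested probes. Some signs depended on the dimmest arrays, which are named below. Without them Man2b1 turned from 0.10 to -0.024 and Hexa from -0.14 to 0.017. Asah1, acid ceramidase, had the largest value. It measured 7.67 to 8.73 (median 8.37) in air and 8.52 to 9.22 (median 8.77) in silica, with overlap, a difference of 0.55 ± 0.19 (limma adjusted p = 0.253). Grn measured 7.94 to 9.24 (median 8.96) in air and 9.14 to 9.53 (median 9.25) in silica, also with overlap, at 0.55 ± 0.22 (limma adjusted p = 0.307). Air replicates 1 and 2 stood apart for both genes, with Grn at 7.94 and 8.21 against 8.91 to 9.24 in the other 4 air rats, and Asah1 at 7.67 and 7.81 against 8.31 to 8.73. They were also the dimmest air arrays, with a 95th percentile of raw intensity of 514 and 682, against 719 to 875 in the other 4. Without them and silica replicate 6, the dimmest silica array at 565, the difference was 0.34 ± 0.16 for Asah1 (limma adjusted p = 0.614) and 0.25 ± 0.095 for Grn (limma adjusted p = 0.537), and no member was called. A joint fit of the 3 tissues called 5 of the 42 members higher in blood, Asah1, Grn, Cln3, Glb1 and Atp6ap1. It called 984 of all 8044 tested probes, while every setting fitted on blood alone called no member. The blood arrays were dimmer, with a 95th percentile of raw intensity of 514 to 1104, against 2276 to 2980 in lung.

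The silica change in lavage cells was more positive than in blood for 3 of 41 members, Smpd1, Mcoln1 and Gla, and less positive for 3, Ppt1, Atp6ap1 and Manba, where 11.0% and 11.5% of all 7180 probes tested in both were called (limma). For Smpd1 the difference was 0.37 ± 0.077 (limma adjusted p = 0.00522) and for Ppt1 -0.61 ± 0.19 (limma adjusted p = 0.0409).

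Other genes of the lysosome, from lists written beside the members, were counted in the same way. In lung, 6 of 13 other hydrolases and cofactors were called higher and none lower. They included Rnaset2, an acid ribonuclease, at 0.60 ± 0.073, Gm2a, the GM2 activator that works with Hexa, at 0.50 ± 0.086, and the acid nuclease Dnase2a at 0.43 ± 0.072. Of 26 other membrane and transport proteins 13 were called higher and 2 lower in lung. The sialomucin Cd68, which also stands among the macrophage markers, was first at 0.85 ± 0.096, followed by Gpnmb at 0.70 ± 0.073 and Litaf at 0.56 ± 0.046. In lavage cells these hydrolases had 5 higher and 4 lower of 13. Rnaset2 rose by 1.06 ± 0.10 and Fuca2, a fucosidase, by 0.93 ± 0.11. The phospholipase Pla2g15 fell by 0.86 ± 0.071. The membrane proteins of lavage cells had 3 higher and 7 lower of 23. The lower ones included Laptm4b at -0.73 ± 0.098 and the cation channels Mcoln3 at -0.59 ± 0.061 and Mcoln2 at -0.47 ± 0.092. Of 24 genes that sort proteins to the lysosome, 1 was called higher and none lower in lung, where 8.26% and 9.46% of all tested probes were. In lavage cells 1 of the 24 was called higher and 5 lower, beside 15.2% and 18.1% of all tested probes. Of 10 regulators around TFEB and mTORC1, 2 were higher and 1 lower in lung, and 3 higher and 2 lower in lavage cells. Flcn, folliculin, which acts on the Rag GTPases, was called higher in both, at 0.15 ± 0.035 in lung and 0.17 ± 0.041 in lavage cells, as was the Rag GTPase Rragc, at 0.22 ± 0.052 and 0.19 ± 0.034. Sqstm1, an autophagy receptor, was higher in lavage cells by 0.42 ± 0.076 (limma adjusted p = 0.00134). None of these genes was called in blood.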

How the data were processed

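The measurements were 36 Illumina rat BeadChip arrays of 21792 probes, 12 for each of lung, lavage cells and blood, with groups and rats taken from the labels. Per the file headers, the deposited tables give for each array a mean bead intensity per probe, not normalized between arrays, and a detection p-value. The authors' own processed log2 values, also deposited, served as an alternative. BeadStudio, lumi and limma appear in the submitters' processing notes with no version, and the step each one did is not given in the sources used here. Slides and scan dates are not given either, so no batch could be examined.

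Within each tissue, intensities were corrected with normexp against negative controls inferred from the detection p-values, given an offset of 16, quantile normalized and put on the log2 scale (neqc, limma 3.58.1, R 4.3.3). A probe entered the test when at least 6 of a tissue's 12 arrays detected it at p under 0.05, and lmFit with eBayes gave two-sided p-values, adjusted by Benjamini-Hochberg over all tested probes, with calls at an adjusted p under 0.05. Of the 53 member probes, 49 passed in lung, 48 in lavage cells and 42 in blood. Differences between tissues were fitted on the within-rat differences. One blood sample of a silica rat carries different numbers in its title and description, and the description decided which column is its own. Dim probes lie near the floor of the scale, where log2 changes understate changes in RNA. The number of arrays limits the precision. On simulated lung data with independent noise, 94% of 100 probes changed by 0.5 and 99% of 100 changed by 1 were recovered. In simulated blood data 87% of 100 probes changed by 0.5 were recovered. That simulation also held 100 probes changed by 1 and called 195 in all, which eases the adjusted threshold. In the measured blood data 0 probes were called, so the 87% does not give the recovery of a change there. Changes smaller than 0.5, which most members showed, were not simulated.

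The members, gene lists and tests were chosen with earlier results of these data known. Array values are given for the 6 largest called rises and falls of each tissue, up to 3 called pump probes in each direction, and the largest differences between lung and lavage cells. Genes outside the membership are named from the lists only, at most 5 called per list and tissue. A gene of these lists is not reported here and is left out of their counts. Promoter windows came from RefSeq on build GRCr8. No probe sequence was in the deposited tables, and protein sequences were not used here. Atp6v1a is named Atp6v1a1 in the files.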

Additional observations from a re-analysis of the deposited data

Results flagged for a closer look

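Values far from their group were looked for in 60 groups of 6 arrays, and 4 were found, where chance alone gives about 1 in 20. In lung, Laptm5 was lowest in air replicate 5, at a log2 intensity of 11.9, with the next air value at 12.12. In lavage cells, Smpd1 was lowest in silica replicate 6, at 11.22, with the next at 11.5. Arsb was highest in air replicate 2, at 7.72, with the next at 7.69, and Laptm5 was highest in air replicate 4, at 15.06, with the next at 14.75. Without air replicate 4, the fall of Laptm5 in lavage cells was -0.16 and still passed the threshold in limma.

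The silica change differed between lung and lavage cells for 5 members described with their array values, tested in limma on each rat's difference. Lung minus lavage was 0.57 for Lgmn, 0.56 for Laptm5 and 0.52 for Hexa. It was -0.34 for Smpd1 and -0.1 for Gla. What these differences come from was not tested.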

How the results depend on the processing

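Median alignment of the arrays, over all probes or over detected probes, changed most. Lung members called higher went from 21 to 1 and 5, all probes higher from 942 to 37 and 322, and all probes lower from 1078 to 40 and 659. In lavage cells members called higher went from 8 to 0 and 2, members lower from 15 to 0 under the first, all probes higher to 275 and 513 and lower to 207 and 721. Lung minus lavage members went from 18 higher to 0 and 7, and from 2 lower to 0 and 1, and lavage minus blood members from 3 higher to 0 and 0 and from 3 lower to 0 under the first. Median changes became -0.025 and 0.095 (lung pump), 0.014 and 0.13 (lung hydrolases), -0.058 and -0.013 (lavage pump), -0.10 under the first (lavage hydrolases), 0.17 and 0.10 (blood pump) and 0.22 and 0.15 (blood hydrolases). Atp6v0e1 in lavage cells turned to -0.0905 and -0.0456. Without background correction the lung hydrolase median was 0.17, 1 lung member was called lower (Laptm4a) and 5 members were lower in lavage minus blood. Detection on all 12 arrays and the trended, robust variance also called 1 lung member lower. With no filter the pump medians were 0.10 in lung and 0.0099 in lavage cells. The authors' values gave a lavage hydrolase median of -0.078 and 7 members lower in lavage minus blood. The joint fit gave a lung hydrolase median of 0.050 and called 596 blood probes higher, 388 lower and 5 members higher. The cause of these shifts was not tested.

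Replicate numbers name different rats in the 2 exposure groups. Deviations of same-numbered rats correlated between -0.49 and 0.39. Whether arrays of the same number shared a slide or run could not be checked, since neither is given. The replicate block called 603 probes higher and 665 lower in lung, and 15 of the 21 lung members. Leaving out 1 array in turn gave 20 to 23 members higher and 0 to 1 lower in lung, 6 to 8 higher and 11 to 15 lower in lavage cells, and 13 to 19 higher in lung minus lavage. It gave 2 to 3 higher and 1 to 4 lower in lavage minus blood. In lavage cells the hydrolase median then ran from -0.092 to -0.012. Precision is limited by 6 rats a group, and most in blood, whose arrays were dimmest.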
